A study of Mus musculus with 2 samples.

Results

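The genes described here build, turn over and anchor the actin cytoskeleton of mouse macrophages. The set was a list of 40 gene symbols matched to Ensembl gene IDs through GENCODE M21, keeping those whose count averaged 10 or more over both libraries. All 40 passed that filter, out of 14379 measured genes and 54446 genes in the count tables. They were grouped by role into 2 actin isoforms, 7 subunits of the Arp2/3 complex, 5 binders of actin monomers, 6 severing, capping and turnover factors, 3 bundlers, 5 membrane linkers, 6 nucleation promoters and elongation factors and 5 large adhesion and scaffold proteins. The intermediate filament gene Vim was taken by itself.

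The study sequenced RNA of bone marrow derived macrophages, cells grown from mouse marrow, from C57BL/6 mice. One group was treated with IL-36 gamma, an interleukin-1 family cytokine that signals in epithelium and in myeloid cells. The other was the untreated control. Each group had 1 library (n = 1), so there is no replicate error and no test of the treatment. The sources used here do not give the dose, the duration, the number of mice or whether both libraries came from 1 culture.

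As background, actin polymerises from a pool of monomers into filaments that push the membrane forward, carry phagocytic cups and pull on adhesions. The Arp2/3 complex starts a new filament as a branch on an old one when WASP or WAVE proteins activate it, formins and Ena/VASP proteins lengthen unbranched filaments, and cofilin, coronins and their partners take filaments apart again. Macrophages move and engulf particles by this cycle, and anchor it to the matrix through podosomes, small adhesions built on an actin core and ringed by talin and vinculin.

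Several actin genes are regulated by the serum response factor SRF, whose MRTF coactivators are held back by actin monomers, and SRF binds a promoter element called the CArG box. The RefSeq promoter windows of GRCm38.p6, covering 250 bases before to 50 bases after each start, were matched for 36 of the 40 members in 44 windows, all but Actb, Coro1b, Marcks and Diaph1, which were not scanned. A CArG box was searched by its consensus, which reads the same on either strand, so that 1 scan covered both. It was found in the windows of 3 members, Actg1, Arpc4 and Vcl, or 8.33% of the members matched. By comparison 488 of 27025 genes (1.81%) and 535 of 32851 windows (1.63%) held one. Those 3 stretches are printed because they show the element in genes of 3 different roles, with the box in capitals and 5′ to 3′ on the strand of the gene. For Actg1 it lies on the minus strand at chr11:120348541-120348620, with the box 90 to 81 bases before the RefSeq start. For Arpc4 it lies on the plus strand at chr6:113377863-113377907, with the box 250 to 241 bases before the start. For Vcl it lies on the plus strand at chr14:20929148-20929215, with the box 227 to 218 bases before the start.
Actg1: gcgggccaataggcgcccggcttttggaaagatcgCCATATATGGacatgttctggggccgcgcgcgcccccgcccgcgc
Arpc4: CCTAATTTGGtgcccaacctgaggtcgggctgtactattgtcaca
Vcl: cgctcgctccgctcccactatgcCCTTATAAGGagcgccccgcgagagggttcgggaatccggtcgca
The 3 genes differed in direction. The ratio of IL-36 gamma to control was 0.943 for Actg1, 1.28 for Arpc4 and 0.820 for Vcl. A box in such a window is a match of letters and was not tested as a binding site.

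The libraries were of similar depth. The IL-36 gamma library held 17267900 gene counts and the control 17426367, and 21048 and 21629 genes had at least 1 count. Another 46.3% of all counted reads in the IL-36 gamma library and 47.2% in the control were assigned to no gene. Macrophage markers, such as Lyz2 and Adgre1, summed to 29287 CPM with IL-36 gamma and 29460 CPM in the control and were abundant in both libraries. Of the 8 macrophage markers measured, 3 were higher, 4 were lower and 1 had an interval that included 1. Lyz2 alone gave 22462 and 22763 CPM of these sums. Among markers of other cells, Pf4, a platelet gene, had 261 CPM with IL-36 gamma and 311 CPM in the control, a ratio of 0.839 (0.806 to 0.873). The 10 fibroblast and stromal markers summed to 14.3 CPM with IL-36 gamma and 20.2 CPM in the control, with Lum, Pdgfra and Thy1 at 0 in both, and of the 7 measured none was higher and 3 were lower. The 10 neutrophil markers summed to 313 CPM with IL-36 gamma and 258 CPM in the control. Of the 9 neutrophil markers measured, 6 were higher and 1 was lower. The part of these cells in any gene's ratio was not tested. In bulk RNA, fewer cells of a type and less RNA per cell cannot be told apart.

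Every comparison below is a ratio of IL-36 gamma over control counts, each scaled with its TMM factor, with an exact 95% interval. These intervals cover counting error only. A gene is called higher when its whole interval lies above 1 and lower when it lies below 1. Of the 40 members, 25 were higher, 9 were lower and 6 had an interval that included 1. Among all 14379 measured genes, 20.2% were higher and 16.5% were lower. Both shares were larger among abundant genes, which have narrower intervals and a median log2 ratio of 0.07. Of the 1926 genes with at least 100 CPM in the control, 49.9% were higher and 25.8% were lower, and of the 35 members at that level 23 were higher and 7 were lower. That is 65.7% and 20% of the abundant members. With total gene counts as the scale in place of TMM, 20 of the 40 members were higher and 13 were lower.

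The differences were small. No member passed the size rule, an interval wholly beyond 2-fold in either direction, which 24 of all measured genes (0.167%) did. The median log2 ratio of the members was 0.09, or a ratio of 1.06, against 0.01 over all measured genes. The highest ratio was that of Aif1 (1.45) and the lowest that of Iqgap1 (0.820). A ratio above 1.1 was found for 17 members and a ratio below its inverse for 5.

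**Figure D1:**
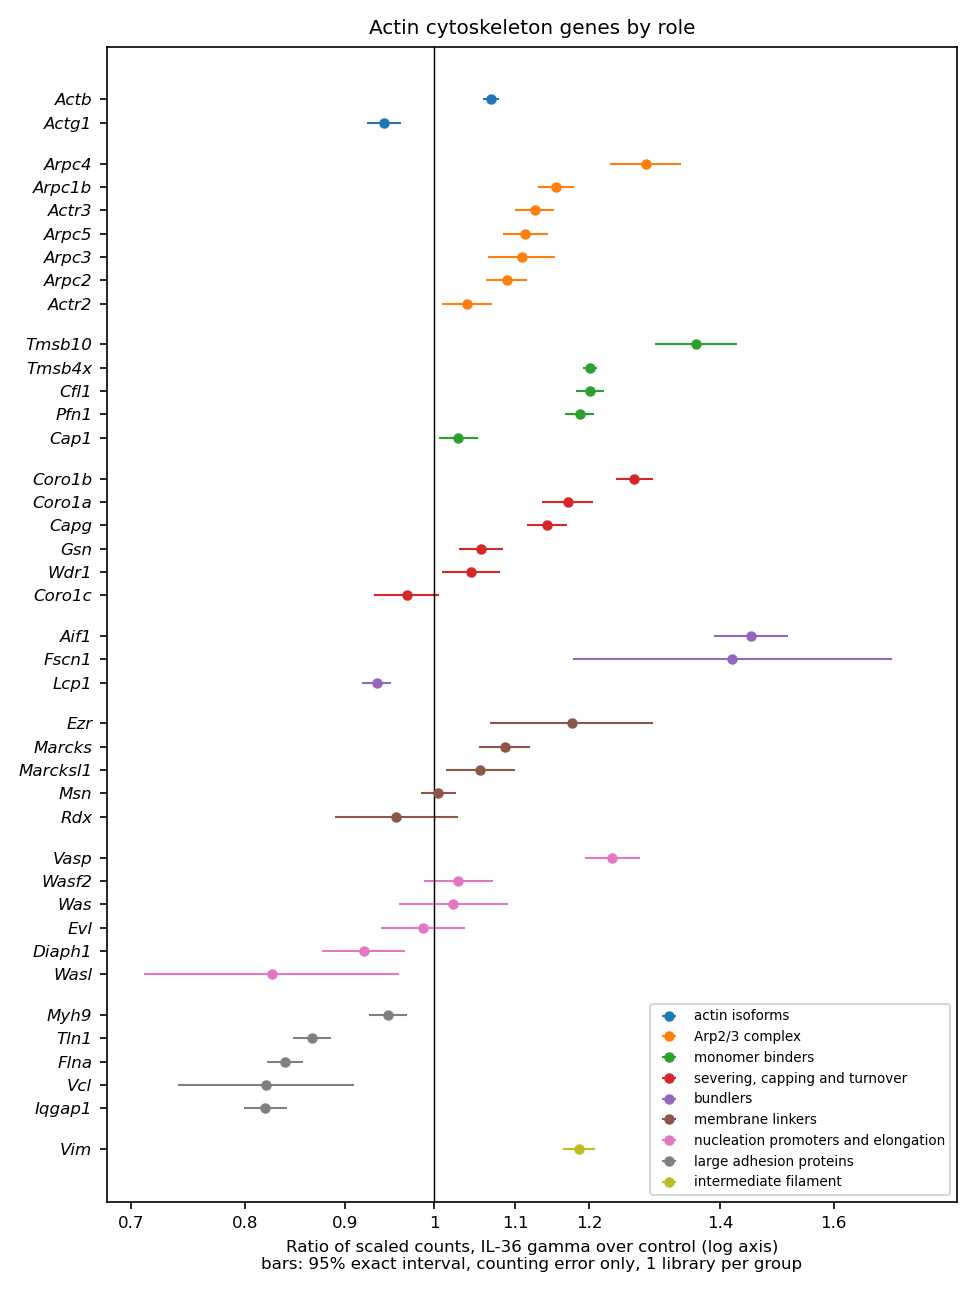
Ratio of TMM-scaled counts, IL-36 gamma over control, of each of the 40 members on a log axis, grouped by role. Points are ratios and bars are exact 95% counting intervals from 1 library a group. All 7 Arp2/3 subunits and all 5 monomer binders lie above 1, and all 5 large adhesion proteins lie below 1.

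Together the members made up a sizeable part of the message pool. They took 3.50% of gene counts with IL-36 gamma (exact 95% interval 3.50 to 3.51) and 3.35% in the control (3.34 to 3.36). The monomer binders alone took 1.15% with IL-36 gamma and 1.005% in the control. The large adhesion proteins took 0.323% with IL-36 gamma and 0.387% in the control. Levels of different genes were compared as scaled CPM per kilobase of exon. On that scale the classes ran in the same order in both libraries at the top: the monomer binders summed to 6957 with IL-36 gamma and 5814 in the control, the actins to 2283 and 2186, and the Arp2/3 complex to 1415 and 1262. The large adhesion proteins summed to 293 with IL-36 gamma and 339 in the control.

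**Figure D2:**
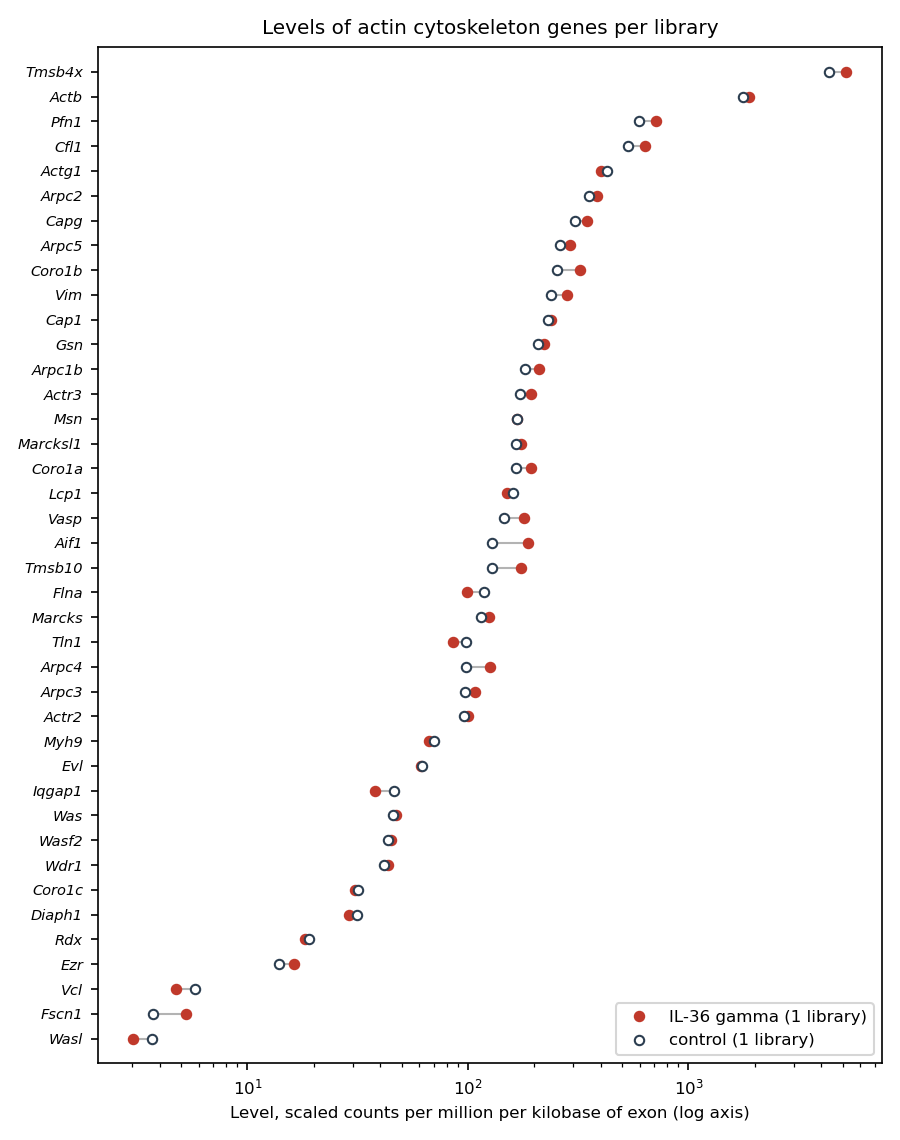
Level of each member in scaled CPM per kilobase of exon on a log axis, with IL-36 gamma and control as separate points, 1 library each. Levels run from about 5198 with IL-36 gamma and 4327 in the control for Tmsb4x to 3.04 and 3.68 for Wasl, and the points of the same gene lie close together.

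All 5 binders of actin monomers were higher with TMM scaling, with a median log2 ratio of 0.26. They have 1276 to 3494 bases of exon. With total gene counts, DESeq2, upper quartile or protein-coding scaling, 4 of the 5 were higher and the interval of Cap1 included 1. Tmsb4x on chromosome X (mm10, 167207093 to 167209315) encodes thymosin beta-4, the main protein that holds actin monomers in reserve. It had 120669 counts with IL-36 gamma and 105419 in the control, a ratio of 1.20 (1.19 to 1.21), and ranked 6th of all measured genes by level per length with IL-36 gamma and 8th in the control. Tmsb10, the related thymosin beta-10, had 3767 counts with IL-36 gamma and 2906 in the control, a ratio of 1.36 (1.30 to 1.43). Its rise relative to Tmsb4x, a ratio of ratios that does not depend on scaling, was 1.13 (1.08 to 1.19). In the Tmsb10 transcript 43.5% of 50-base stretches also occur in genes elsewhere, mostly pseudogenes, so its count is uncertain.

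Cfl1 and Pfn1 encode cofilin, which severs filaments and frees monomers, and profilin, which reloads monomers with ATP and feeds them to growing ends. Cfl1 had 30643 counts with IL-36 gamma and 26792 in the control, a ratio of 1.20 (1.18 to 1.22). Pfn1 had 28905 counts with IL-36 gamma and 25573 in the control, a ratio of 1.19 (1.17 to 1.21). The 3 abundant genes Tmsb4x, Cfl1 and Pfn1 thus had nearly the same ratio. Of the Cfl1 exon bases, 16.5% overlap Snx32 on the opposite strand. Cap1, the cyclase-associated protein that works with cofilin to recycle monomers, had 14077 counts with IL-36 gamma and 14363 in the control, a ratio of 1.03 (1.01 to 1.05). Its log2 ratio of 0.04 turned negative with total gene counts as the scale (-0.02) and when the length (-0.01), transcript length (-0.01) or expression trend (-0.09) of all genes was removed.

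The actin isoforms went opposite ways. Actb encodes beta-actin, chromosome 5, 142903115 to 142906754, and Actg1 gamma-actin, the other cytoplasmic isoform. Actb had 85343 counts with IL-36 gamma and 83769 in the control, a ratio of 1.07 (1.06 to 1.08). Actg1 had 18087 counts with IL-36 gamma and 20140 in the control, a ratio of 0.943 (0.924 to 0.962). The ratio of Actb to Actg1 was 1.13 times higher with IL-36 gamma (1.11 to 1.16). Scaled CPM per kilobase put Actb at 4.68 times Actg1 with IL-36 gamma and 4.13 times in the control. Their exon lengths, 2679 and 2658 bases, hardly differ. The Actb value turned to -0.07 on the log2 scale with the expression trend removed and to -0.0015 with the transcript length trend removed, while Actg1 stayed lower. Of the 50-base stretches of Actg1, 55.9% occur elsewhere in other genes, against 14.2% for Actb, so the Actg1 count is uncertain.

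Each of the 7 Arp2/3 subunits in the set was higher, with a median log2 ratio of 0.15 and ratios between 1.04 and 1.28, and their exons cover 2033 to 5204 bases. Summed over these 7, counts were 76705 with IL-36 gamma and 71847 in the control, a ratio of 1.12 (1.11 to 1.13). Actr2 and Actr3 are the actin-related subunits that template the branch. Actr3 had 15211 counts with IL-36 gamma and 14187 in the control, a ratio of 1.13 (1.10 to 1.15), but 49.8% of its 50-base stretches also occur in 2 pseudogenes, so its count is uncertain. Actr2 had 8788 counts with IL-36 gamma and 8874 in the control, a ratio of 1.04 (1.01 to 1.07). The small Actr2 ratio lost its call with DESeq2 or protein-coding scaling, and changed sign with total gene counts as the scale (log2 -0.00087) and with the expression trend removed (-0.06).

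Among the 5 scaffolding subunits in the set, Arpc4, which forms the core of the complex with Arpc2, stood highest. Arpc4 on chromosome 6, 113378115 to 113390448, had 4945 counts with IL-36 gamma and 4048 in the control, a ratio of 1.28 (1.23 to 1.34). Of its exon bases, 12.2% overlap Ttll3 on the same strand. Arpc1b, the isoform of the regulatory subunit dominant in blood cells, had 18205 counts with IL-36 gamma and 16566 in the control, a ratio of 1.15 (1.13 to 1.18). Of the Arpc1b exon bases, 18.2% overlap Pdap1 on the opposite strand, and 13.4% of its 50-base stretches also occur in other genes. The remaining subunits were alike. Arpc5 had 11208 counts with IL-36 gamma and 10569 in the control, Arpc3 had 5050 and 4783, and Arpc2 had 13298 and 12820. Their ratios were 1.11 (1.08 to 1.14), 1.11 (1.07 to 1.15) and 1.09 (1.06 to 1.12). Most subunits thus lay between 1.09 and 1.15, with Arpc4 above that range and Actr2 below it. For Arpc2 the log2 ratio of 0.12 became -0.0021 with the expression trend removed, and with the length trend removed its interval included 1. Subunit isoforms outside the set, named after their values were seen, were less uniform. Arpc1a had 883 counts with IL-36 gamma and 944 in the control, a ratio of 0.982 (0.895 to 1.08). Arpc5l was higher at 1.19 (1.08 to 1.31). Actr3b, with 21 counts and 14, had a ratio of 1.57 whose interval included 1 (0.764 to 3.35).

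Severing, capping and turnover factors were higher in 5 of 6 cases, with a median log2 ratio of 0.14. With total gene counts as the scale or the GC trend removed, 3 were higher and 1 was lower, and with DESeq2 or protein-coding scaling 4 were higher and 1 was lower. Coro1b, the coronin that removes Arp2/3 from branches at the leading edge, had 17395 counts with IL-36 gamma and 14429 in the control, a ratio of 1.27 (1.24 to 1.29). It lies on chromosome 19 at 4148619 to 4154035, and 13.5% of its exon bases overlap Ptprcap on the same strand. Coro1a, the coronin typical of blood cells, had 9089 counts with IL-36 gamma and 8154 in the control, a ratio of 1.17 (1.14 to 1.21). Coro1c, a widely expressed coronin, had 5019 counts with IL-36 gamma and 5444 in the control, a ratio of 0.968 whose interval included 1 (0.931 to 1.01). Its log2 ratio of -0.05 became 0.06 with the length trend removed, with an interval then wholly above 0. Within the coronins, the ratio of Coro1b to that of Coro1a was 1.08 (1.04 to 1.12) and that of Coro1c to Coro1a was 0.827 (0.788 to 0.868). Exon lengths were 2783 bases for Coro1a, 3204 for Coro1b and 9664 for Coro1c.

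Capg and Gsn belong to the gelsolin family. Capg caps the fast-growing ends of filaments and is abundant in macrophages, and Gsn severs filaments in response to calcium. Capg had 14875 counts with IL-36 gamma and 13674 in the control, a ratio of 1.14 (1.12 to 1.17). Gsn had 11770 counts with IL-36 gamma and 11696 in the control, a ratio of 1.06 (1.03 to 1.08). Wdr1, which speeds cofilin-driven disassembly, had 6526 counts with IL-36 gamma and 6563 in the control, a ratio of 1.04 (1.01 to 1.08). With the expression trend removed the log2 ratios of Gsn and Wdr1 became -0.04 and -0.04, so their direction depended on that choice.

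The bundlers held the highest ratios of the whole set and 1 member that was lower. Aif1, also called IBA1, a calcium-binding bundler used as a macrophage and microglia marker, lies on chromosome 17 at 35170991 to 35176068. It had 4858 counts with IL-36 gamma and 3513 in the control, a ratio of 1.45 (1.39 to 1.52). Fscn1 encodes fascin, which packs filaments into filopodia and is a hallmark of mature dendritic cells. It had 269 counts with IL-36 gamma and 199 in the control, a ratio of 1.42 (1.18 to 1.71), and was among the least abundant members, at 5.27 CPM per kilobase with IL-36 gamma and 3.72 in the control. Beside it, the 8 dendritic cell markers summed to 14.8 CPM with IL-36 gamma and 11.6 CPM in the control, with Siglech and Cd209a at 0 in both. Batf3, the only one measured, gave 13.3 and 9.90 CPM of these sums. Ccr7, a marker of mature dendritic cells, had 12 counts with IL-36 gamma and 3 in the control, a ratio of 4.2 (1.13 to 23.2), Xcr1 had 3 and 11, and Clec9a had 4 and 10. The part of such cells in the Fscn1 ratio was not tested. Fscn1 (chromosome 5, 142960343 to 142973185) is the neighbour of Actb, 53588 bases away with no protein-coding gene between, and the ratio of Actb was 1.07.

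Lcp1 encodes L-plastin, the bundler of white blood cells, and dominated the class by count. It had 24130 counts with IL-36 gamma and 27110 in the control, a ratio of 0.934 (0.918 to 0.951). The class median was a log2 ratio of 0.50, yet its summed counts, 29257 with IL-36 gamma and 30822 in the control, gave a ratio of 0.996 (0.980 to 1.01). With 9504 bases of exon Lcp1 is far longer than Aif1 (1532) and Fscn1 (3012). With the length trend removed its log2 ratio of -0.10 became 0.0095.

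Membrane linkers lay close to 1, with 3 of 5 higher, none lower and a median log2 ratio of 0.08, but 2 higher and 2 lower with total gene counts as the scale. Ezrin, radixin and moesin (Ezr, Rdx and Msn) tie filaments to membrane proteins, and moesin is the main one in white blood cells. Msn had 17937 counts with IL-36 gamma and 18738 in the control, a ratio of 1.005 (0.984 to 1.03), and a log2 ratio of -0.05 with total gene counts as the scale and -0.13 with the expression trend removed, both with intervals wholly below 0. Ezr had 906 counts with IL-36 gamma and 809 in the control, a ratio of 1.18 (1.07 to 1.29). Rdx had 1430 counts with IL-36 gamma and 1570 in the control, a ratio of 0.956 with an interval that included 1 (0.889 to 1.03). The ratio of Ezr relative to Msn was 1.17 (1.06 to 1.29), and that of Rdx relative to Msn was 0.952 (0.883 to 1.03).

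Marcks and Marcksl1 encode lipid-anchored proteins that bind actin and release it when protein kinase C phosphorylates them. Marcks had 8525 counts with IL-36 gamma and 8238 in the control, a ratio of 1.09 (1.05 to 1.12). Marcksl1 had 4732 counts with IL-36 gamma and 4705 in the control, a ratio of 1.06 (1.01 to 1.10). The difference between them, 0.972 (0.924 to 1.02) for Marcksl1 over Marcks, was within counting error. The Marcksl1 log2 ratio of 0.08 became -0.04 with the length trend removed, -0.03 with the transcript length trend removed and -0.0067 with the expression trend removed.

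Nucleation promoters and elongation factors were mixed, with 1 higher, 2 lower, 3 with intervals that included 1 and a median log2 ratio of 0.01, which was -0.05 with total gene counts as the scale. Was encodes WASP, the activator of Arp2/3 in blood cells, Wasl the ubiquitous N-WASP, and Wasf2 the WAVE2 protein of lamellipodia. Was had 1894 counts with IL-36 gamma and 1944 in the control, a ratio of 1.02 (0.959 to 1.09). Wasf2 had 4754 counts with IL-36 gamma and 4851 in the control, a ratio of 1.03 (0.988 to 1.07). Wasl had 317 counts with IL-36 gamma and 403 in the control, a ratio of 0.826 (0.710 to 0.959), and its ratio relative to that of Was was 0.807 (0.688 to 0.948). With the length trend removed, Wasf2 was higher, at a log2 ratio of 0.09.

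Vasp and Evl are members of the Ena/VASP family, which shields growing filament ends from capping. Vasp on chromosome 7, 19256929 to 19271817, had 7996 counts with IL-36 gamma and 6806 in the control, a ratio of 1.23 (1.19 to 1.27). Evl had 3044 counts with IL-36 gamma and 3238 in the control, a ratio of 0.987 (0.939 to 1.04). The ratio of Evl relative to that of Vasp was 0.800 (0.754 to 0.849), the furthest from 1 of the 9 paralog pairs compared, for genes of similar exon length (2940 and 2617 bases). Diaph1, a formin that elongates unbranched filaments, had 3106 counts with IL-36 gamma and 3544 in the control, a ratio of 0.920 (0.876 to 0.966).

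All 5 large adhesion and scaffold proteins were lower, with a median log2 ratio of -0.25, and their exons cover 8191 to 16538 bases. Iqgap1, a scaffold that joins actin to Rac1, Cdc42 and microtubules, lies on chromosome 7 at 80711583 to 80825974. It had 10617 counts with IL-36 gamma and 13598 in the control, a ratio of 0.820 (0.799 to 0.841). Vcl encodes vinculin, which reinforces the link from talin to actin. It had 655 counts with IL-36 gamma and 838 in the control, a ratio of 0.820 (0.740 to 0.910), and 25.5% of its exon bases overlap Ap3m1 on the opposite strand. Flna encodes filamin A, which crosslinks filaments into a gel and lies on chromosome X at 74223461 to 74249820. It had 15772 counts with IL-36 gamma and 19732 in the control, a ratio of 0.839 (0.822 to 0.857).

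Tln1 encodes talin 1, which activates integrins and couples them to actin, and Myh9 the heavy chain of non-muscle myosin IIA, the motor that contracts the network. Tln1 had 14154 counts with IL-36 gamma and 17153 in the control, a ratio of 0.866 (0.847 to 0.886). Myh9 had 14524 counts with IL-36 gamma and 16102 in the control, a ratio of 0.947 (0.926 to 0.968). Only the direction of Myh9 turned among these 5 when length was taken into account, as its log2 ratio of -0.08 became 0.09 with the length trend removed and 0.08 with the transcript length trend removed.

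Vim encodes vimentin, the intermediate filament protein of mesenchymal and white blood cells. It had 22659 counts with IL-36 gamma and 20062 in the control, a ratio of 1.19 (1.16 to 1.21), close to those of Cfl1 and Pfn1.

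The classes were set against each other by the ratio of their summed counts, which does not depend on the scaling of the libraries. Relative to the large adhesion proteins, counts with IL-36 gamma over control were 1.37 times higher for the monomer binders (1.35 to 1.39), 1.31 times for severing, capping and turnover factors (1.28 to 1.33) and 1.29 times for the Arp2/3 complex (1.27 to 1.31). The same ratio was 1.23 for nucleation promoters and elongation factors (1.20 to 1.26), 1.19 for membrane linkers (1.17 to 1.21) and 1.15 for bundlers (1.13 to 1.17). These 6 ratios share the adhesion class as the denominator, and their intervals hold counting error of 2 libraries and no variation between cultures. The length trend of all genes was not removed from them. On the log2 scale that trend had a median of 0.09 over the monomer binders and -0.11 over the large adhesion proteins. Of the 198061 counts of the monomer binders with IL-36 gamma, 120669 came from Tmsb4x.

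Exon length moved with these values. Over the 40 members, the Spearman correlation between exon length and log2 ratio was -0.69, a description over genes that share the same pair of libraries. Over 14373 measured genes with a length it was -0.26. Of the 17 members with less than 3000 bases of exon, 14 were higher and 1 was lower, with a median log2 ratio of 0.19. All 5345 genes of that length had a median of 0.10, and 26.7% were higher and 7.63% lower. Between 3000 and 6000 bases, 10 of 11 members were higher and none lower, with a median of 0.17. The 5165 genes of that length had a median of 0.02, and 21.1% were higher and 13.3% lower. From 6000 bases on, 1 of 12 members, Wdr1, was higher and 8 were lower, with a median of -0.11. The 3863 genes of that length had a median of -0.10, and 9.99% were higher and 33.1% lower. In each length range the members thus had the same leaning as all genes, with medians further above 0 in the short and middle ranges and nearly equal in the long range. The shares by length cover genes of any level, whereas 35 of the 40 members had at least 100 CPM in the control. Genes at that level have narrower intervals and were called more often, so the counts of calls and these shares are not matched for level.

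**Figure D3:**
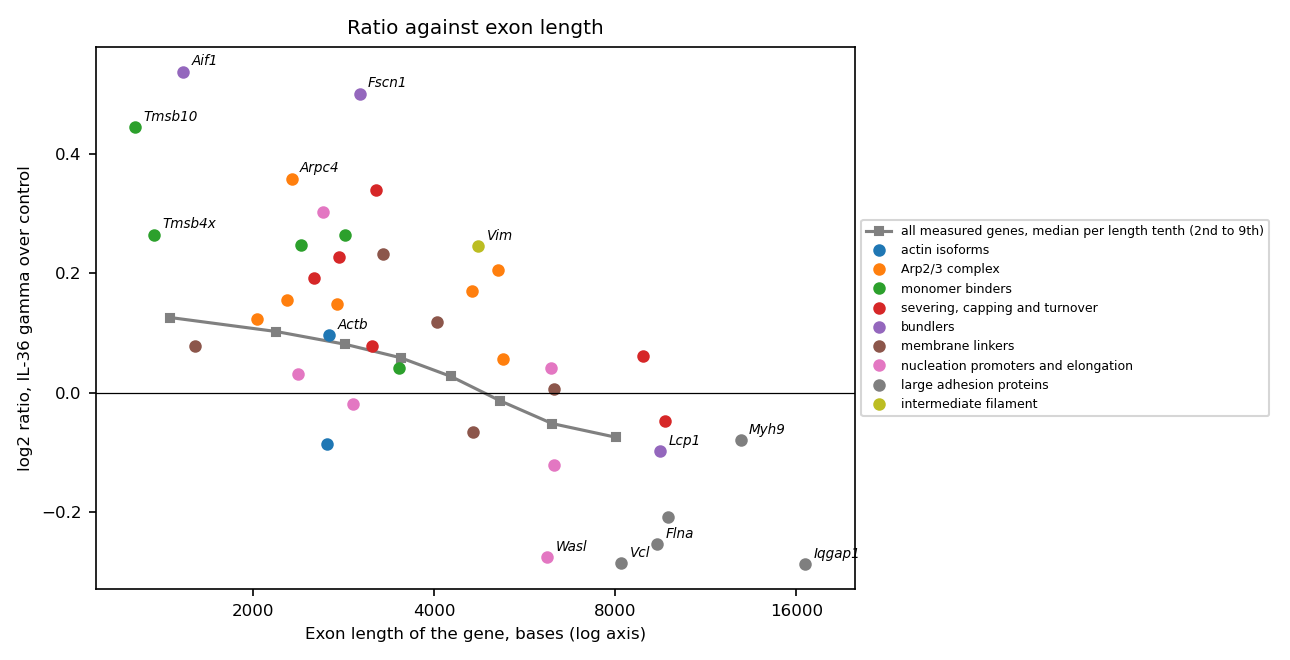
Log2 ratio of IL-36 gamma over control against exon length on a log axis, with the 40 members as points coloured by role. Grey squares joined by a line are medians of all measured genes in the 2nd to 9th of 10 equal length bins. They fall with length, and the large adhesion proteins, at 8191 to 16538 bases, lie at or beyond the low end of that line and below 0.

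The longest of 10 equal bins of measured genes, with 9234 or more exon bases, held 6 members. Flna, Tln1, Myh9, Iqgap1 and Lcp1 were lower and Coro1c had an interval that included 1, so that 5 of 6 were lower. In that bin 45.9% of all genes were lower and 6.26% higher, with a median log2 ratio of -0.16. With the length trend of all genes removed, the median of the adhesion class was -0.09, with 4 lower and Myh9 higher, against -0.25 before. The median of the monomer binders was then 0.15, with 4 of 5 higher, against 0.26 before, and that of the Arp2/3 complex 0.08, with 6 of 7 higher, against 0.15 before. Over all members 25 were then higher and 8 lower, and 27 lay above the median of their own length bin. The part of exon length in these ratios was not tested.

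Expression level also moved with the ratios. With a trend on expression removed in place of length, 16 members were higher and 16 lower and their median was -0.0076. The Arp2/3 complex then had a median of 0.04 with 4 of 7 higher and 1 lower, the monomer binders 0.10 with 4 of 5 higher and Cap1 lower, and the large adhesion proteins -0.34 with 5 of 5 lower. The order of the classes, with monomer binders over Arp2/3 over adhesion proteins, was the same under both trends, while the medians themselves differed.

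**Figure D4:**
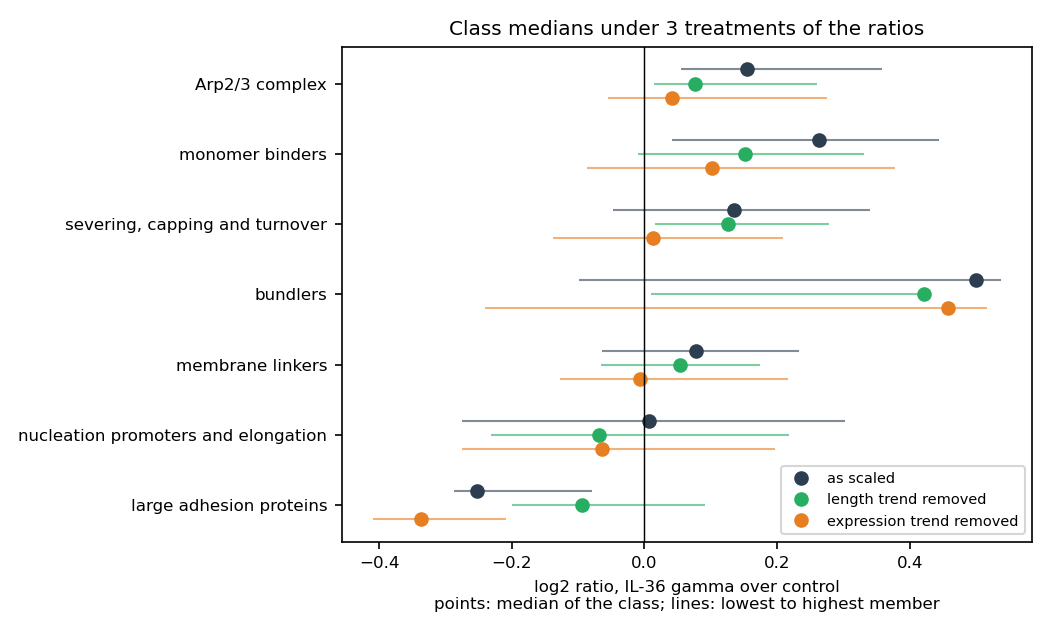
Median log2 ratio of each role with 3 or more members under TMM scaling and with the length or the expression trend of all genes removed, as points, with lines from the lowest to the highest member. The median of the large adhesion proteins lies below 0 and those of the monomer binders and the Arp2/3 complex above 0 under each of these 3 settings. Lines of these classes cross 0 where single members turned, such as Myh9 with the length trend removed and Cap1 with either trend removed.

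Other cytoskeletal genes, 113 of which were measured from lists made for the same purpose, placed these values in context. Among all measured genes 20.2% were higher and 16.5% were lower. Of the 113, 39 were higher, 34 were lower and 40 had intervals that included 1, with a median log2 ratio of -0.000842. None passed the size rule. Tubulins and stathmin, the microtubule genes, had 7 of 12 higher and 1 lower, Tubb6, with a median of 0.33. By the rule for named genes, Rac2, the Rac GTPase of blood cells, led with 19932 counts with IL-36 gamma and 15008 in the control, a ratio of 1.39 (1.36 to 1.42). Tuba1b, an alpha-tubulin, had 4734 counts with IL-36 gamma and 3606 in the control, a ratio of 1.38 (1.32 to 1.44).

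Among adhesion, motor and formin genes outside the set, more were lower. Other adhesion and crosslinking genes had 4 of 20 higher and 10 lower, with a median of -0.14, which was -0.04 with the length trend removed. Of all measured genes with 6000 or more exon bases, 9.99% were higher and 33.1% were lower. The median exon length of the adhesion list was 6665 bases. The 4 higher ones, named after their values were seen like the short lists below, were the focal adhesion genes Zyx, Tes, Fermt3 and Pxn, with ratios of 1.15, 1.22, 1.13 and 1.05, of which Pxn turned to a log2 ratio of -0.01 with the expression trend removed. Macf1 and Dst, giant linkers of actin and microtubules, were the lowest by the same rule for named genes, and among the longest, with 31402 and 41155 exon bases. Macf1 had 4075 counts with IL-36 gamma and 6764 in the control, a ratio of 0.632 (0.608 to 0.658). Dst had 1150 counts with IL-36 gamma and 1898 in the control, a ratio of 0.636 (0.591 to 0.685). With the length trend removed, the log2 ratio was -0.28 for Macf1, against -0.66 before, and -0.21 for Dst, against -0.65 before.

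Myosins and their light chains had 3 of 12 higher, Myl6, Myl12a and Myo1g, and 7 lower, with a median of -0.20. That median was -0.16 with the length trend removed, at a median exon length of 7226.5 bases. Among all measured genes with 6000 or more exon bases, 9.99% were higher and 33.1% were lower. Myl6, the essential light chain that pairs with Myh9, had 7318 counts with IL-36 gamma and 6687 in the control, a ratio of 1.15 (1.11 to 1.19). Its heavy chain, as counted without a length correction, was lower. Myo9a, an unconventional myosin, had 386 counts with IL-36 gamma and 620 in the control, a ratio of 0.653 (0.574 to 0.743). Of 8 other formins, none was higher and 4 were lower, Diaph2, Fmnl2, Inf2 and Fhod1, with ratios of 0.732, 0.714, 0.806 and 0.827 and a list median of -0.21. Diaph1, with 0.920, lay above these 4. The formin list had a median exon length of 5295 bases, and its median log2 ratio was -0.19 with the length trend removed. Of all measured genes with 3000 to 6000 exon bases, the range that holds the median length of the formins, 21.1% were higher and 13.3% were lower. The formins Diaph2 and Daam1 were longer than that range, with 11553 and 8096 exon bases.

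Lists of further actin turnover genes and of WAVE and WASP partners had medians nearer to 0. Other Arp2/3, capping and monomer genes had 7 of 19 higher and 2 lower, Tpm2 and Ssh2, with a median of 0.05. That list holds genes of the same roles as members, such as Arpc1a and Capzb, and also tropomyosins. WAVE complex genes and WASP partners had 6 of 17 higher and 2 lower, Nckap1l and Washc2, with a median of 0.03. The shares over all measured genes were 20.2% higher and 16.5% lower. Of the 5 measured genes of the SRF list, Srf had 1273 counts with IL-36 gamma and 1290 in the control, a ratio of 1.04 (0.958 to 1.12). Mrtfa had 1451 counts with IL-36 gamma and 1537 in the control, a ratio of 0.991 (0.922 to 1.07). Both intervals included 1. Fhl3 was higher at 1.24, and Mrtfb and Egr1 were lower at 0.783 and 0.689.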

How the data were processed

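RNA was extracted with Trizol and sequenced from an Illumina library, per the labels' protocols. The authors deposited 1 table of raw, unnormalized counts by Ensembl gene for each library. The submitters' processing notes name HTSeq, STAR 2.5.0a, Trim Galore 0.6.1 and FastQC 0.11.8, and the build mm10. The sources used here do not give the annotation release, the strand setting or HTSeq's version and settings. Whether the counts separate reads of a gene from those of an overlapping gene on the other strand is therefore not known. The 5 rows that name no gene were kept out of library sizes.

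Symbols, positions and exon lengths (the union of a gene's exons) were taken from GENCODE M21, which uses that assembly. A gene was measured when its count averaged 10 or more. Scaling used the TMM factors of edgeR 4.0.16 (R 4.3.3), 0.981 for IL-36 gamma and 1.02 for the control. With 1 library a group no edgeR test could be run. In its place each ratio of scaled counts was given with its exact 95% Clopper-Pearson interval, and the size rule required the whole interval beyond 2-fold, above 2 or below 0.5. Log2 ratios carry a prior count of 2, and class values are medians over members. Intervals of a ratio between genes or classes are log-normal counting intervals. Copies made by the polymerase chain reaction are not independent molecules. The floor of 3 counts equals 0.177 CPM with IL-36 gamma and 0.169 CPM in the control.

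Lowess trends over all measured genes had a span of 0.3. Shared sequence was sought as 50-base stretches of the longest coding transcript. The members and the lists were chosen with earlier results of these data known. Genes outside the members were named as the 3 highest and 3 lowest of the other cytoskeletal lists by the bound of the interval nearest 1, with a mean count of at least 50; 1 of these lists and 1 of these genes are not reported here. Of 207 listed names 1 had no match. The interval rule was run on simulated libraries with Poisson counting error only. That run holds no variation between cultures and cannot show how the rule fares under it. Computations used Python 3.11.15, numpy 2.4.6, pandas 2.3.3, scipy 1.17.1 and statsmodels 0.14.6. The alternatives were other scalings (total gene counts, DESeq2 1.42.0 size factors, upper quartile, protein-coding genes), trends on length, expression or GC content removed, other count filters, a 99% interval, a 1.5-fold bound, a prior count of 0.5, summed counts, and members with opposite-strand overlap left out. Removing a trend on transcript length, and leaving out members with over 10% shared or same-strand overlapping sequence, were chosen after seeing the data.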

Additional observations from a re-analysis of the deposited data

How the results depend on the processing

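The 3 limits that matter are 1 library a group, no measure of variation between cultures, and trends of the ratios with length and with expression over all genes. No paired analysis was possible because each group has 1 library. Of 536 gene values under alternatives, 372 moved by less than the counting interval, 146 moved further and 18, of genes called higher or lower, changed sign (turned). A further 21 sign changes, counted among the others, were of genes whose interval had included 1, and 3 of them, Msn under total gene counts and the expression trend and Coro1c under the length trend, had an interval wholly on the other side. Of 153 values of counts, medians and shares, 122 stayed close. The cause was not tested for any of them.

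With total gene counts as the scale, the median log2 ratio was 0.031 over the members, 0.098 for the Arp2/3 complex, 0.21 for the monomer binders, 0.078 for severing, capping and turnover and -0.31 for the large adhesion proteins, and Actr2 (-0.00087) and Cap1 (-0.016) turned. With the length trend removed, the medians were 0.075 for the Arp2/3 complex, 0.15 for the monomer binders and -0.095 for the large adhesion proteins, and Cap1 (-0.0094), Lcp1 (0.0095), Marcksl1 (-0.037) and Myh9 (0.091) turned. With the expression trend removed, 16 members were higher and 16 lower. The medians were then -0.0076 over the members, 0.042 for the Arp2/3 complex, 0.10 for the monomer binders, 0.013 for severing, capping and turnover, -0.0067 for membrane linkers and -0.34 for the large adhesion proteins. Actb (-0.069), Arpc2 (-0.0021), Actr2 (-0.056), Cap1 (-0.087), Gsn (-0.042), Wdr1 (-0.038), Marcksl1 (-0.0067) and Pxn (-0.0098) turned under it. With the GC trend removed the median of severing, capping and turnover was 0.082.

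Leaving out the 14 members with opposite-strand overlap left 5 lower members and an adhesion median of -0.17, from Flna and Myh9 alone. From summed counts, the log2 ratio was 0.18 for severing, capping and turnover, -0.0053 for bundlers and 0.092 for nucleation promoters and elongation factors. The share of counts per exon base was 3.62% with IL-36 gamma and 3.44% in the control. With the trend on transcript length removed, an alternative chosen after seeing the data, the medians were 0.056 over the members, 0.056 for the Arp2/3 complex, 0.15 for the monomer binders, 0.074 for severing, capping and turnover, 0.017 for membrane linkers and -0.058 for the large adhesion proteins. Actb (-0.0015), Cap1 (-0.0069), Marcksl1 (-0.034) and Myh9 (0.082) turned under it. Leaving out the 7 members with shared or same-strand overlapping sequence, also chosen after seeing the data, gave 0.079 for severing, capping and turnover.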
